A study of Mus musculus with 9 samples.

Results

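The genes described here are the receptors for corticosteroid hormones and genes that act on or respond to them in parvalbumin inhibitory neurons (PV INs) of hippocampal CA3/CA2. They were chosen by name: the receptors Nr3c1 and Nr3c2, the enzyme gene Hsd11b1, the receptor chaperones Fkbp5 and Fkbp4, and the glucocorticoid-responsive genes Sgk1, Tsc22d3 and Per1. All 8 were found among the 37620 genes of the files, and all 8 were among the 15069 genes that passed the filter on low counts and were tested. All mice were PV-Cre; Rpl22HA/HA animals, 2 months old, in which Cre recombinase expressed from the parvalbumin gene switches on a hemagglutinin (HA) tag on the ribosomal protein Rpl22. Lentivirus injected into the dentate gyrus (DG) carried either a non-target shRNA (shNT, 5 samples) or an shRNA against Ablim3 (shRNA, 4 samples), a gene that limits the contacts of DG mossy fibers onto PV INs. CA3/CA2 tissue was taken 2 weeks after injection, 6 mice of both sexes were pooled for each sample, and tagged ribosomes were immunoprecipitated with the RNA bound to them. The comparison asks which transcripts differ in PV INs when DG inputs onto them are increased. The virus acts in DG, the tag is limited to cells with Cre, and any RNA from untagged cells that comes down with the ribosomes is counted as well.

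Corticosterone, the glucocorticoid hormone of mice, enters cells and binds a pair of nuclear receptors. The mineralocorticoid receptor, encoded by Nr3c2, binds it with high affinity and is abundant in hippocampal neurons, and the glucocorticoid receptor, encoded by Nr3c1, has lower affinity and is engaged as hormone levels rise with stress and with the daily rhythm. Both are held in a chaperone complex until hormone binds, after which they move to the nucleus and act on DNA at glucocorticoid response elements. Fkbp5, Sgk1, Tsc22d3 and Per1 are widely used as readouts of this action.

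Gene counts per sample ran from 19680352 to 34578837 in the shNT samples and from 18281719 to 30421093 in the shRNA samples. Each count of the 8 genes was at least 232. Counting error was not set against the spread between samples, and it weighs most in the genes with the lowest counts, Hsd11b1 and Per1. Levels are given as CPM, gene counts scaled to library size with the TMM factors of edgeR. Of the 11 PV IN markers, none was at 0 in any sample, and all 11 had a negative log2 fold change, from summed levels of 5288 to 8581 CPM in the shNT samples to 3113 to 7541 CPM in the shRNA samples. Of these markers 0 were called and 2 were lower at an unadjusted p under 0.05, as were 13.4% of all genes. Pvalb itself averaged 998 ± 287 CPM with shNT (SD, n = 5) and 526 ± 163 CPM with the shRNA (SD, n = 4). shRNA replicate 4 stood apart: 27.2% of its uniquely aligned reads fell outside annotated exons (12.4% was the lowest share in its group), its PV IN markers were the lowest of all samples, and its 10 astrocyte markers summed to 5810 CPM against 1474 to 1749 CPM in the other shRNA samples. Reads outside exons moved with the group: their share was 9.76% to 18.6% with shNT (median 11%, highest in replicate 2) and 12.4% to 27.2% with the shRNA (median 16.2%, with 19.8% in replicate 1). All 5 nuclear-retained noncoding RNAs had a positive log2 fold change (median 1.16) and 0 were called. At an unadjusted p under 0.05, 2 were higher, beside 20.7% of all genes. Their summed levels were 1660 to 15015 CPM with shNT and 3621 to 18976 CPM with the shRNA. The part of these measures in the differences between groups was not tested. Ablim3 itself averaged 16.9 ± 5.16 CPM (SD) over the 5 shNT samples and 18.5 ± 3.42 CPM (SD) over the 4 shRNA samples in this RNA, which comes from CA3/CA2 and so does not check the knockdown in DG. In bulk RNA of this kind, fewer cells of a type and less RNA per cell cannot be told apart. The spread between samples is that between pools of mice.

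Between the groups, Fkbp5 was the member that passed the test. It rose 1.52-fold in the shRNA samples (FDR = 0.0433). FDR values are those of edgeR's quasi-likelihood (QL) test, adjusted by Benjamini-Hochberg over all genes tested, and called genes had an FDR below 0.05 with at least 1.5-fold change. The lowest FDR of any gene was 0.0403, so every called gene lay close to the threshold. That made 1 of 8 members called higher, where 1.74% of all genes tested were called higher, and 0 called lower, where 0.0133% of all genes were. Another 5 members, Nr3c1, Nr3c2, Sgk1, Tsc22d3 and Per1, had an FDR between 0.05 and 0.1, which with Fkbp5 made 6 members under 0.1, as were 23.2% of all genes. A log2 fold change above 0 was seen in 6 members and in 57.9% of all genes. At an unadjusted p under 0.05 there were 6 members against 34.1% of all genes, 5 of them higher (20.7% of all genes) and 1 lower (13.4%). In 5 members all shRNA samples were above all shNT samples, which held for 8.97% of all genes, and in Tsc22d3 all were below, which held for 6.68%. The median log2 fold change of the members was 0.47, and that of all genes tested was 0.11. The members were chosen with earlier results of these data known. Their counts beside the shares of all genes are therefore descriptions and no test of the set.

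**Figure D1:**
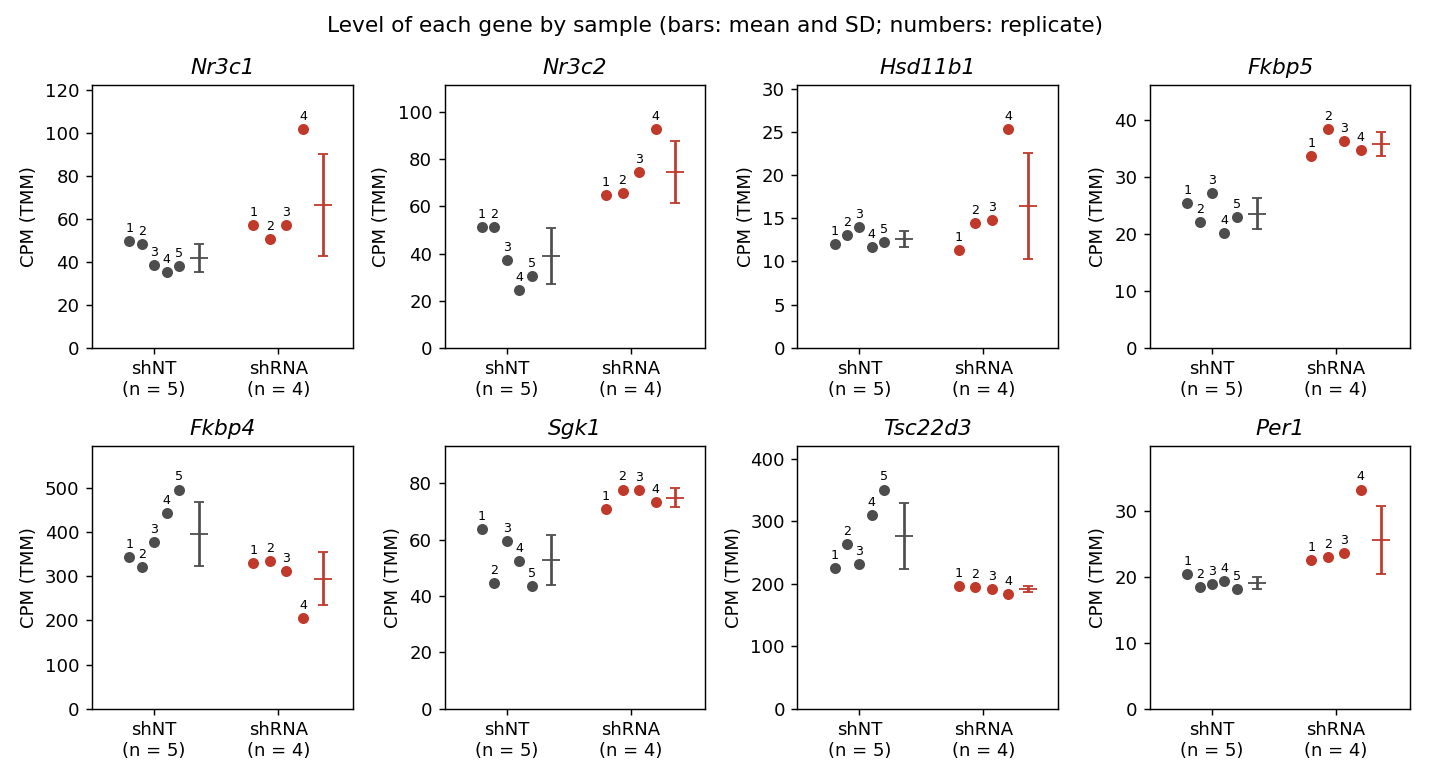
Level of each of the 8 genes in CPM (TMM-scaled, linear axes from 0) in the 5 shNT and 4 shRNA samples, with the replicate number above each point and the mean and SD beside each group. The groups do not overlap in Nr3c1, Nr3c2, Fkbp5, Sgk1 and Per1, which were higher with the shRNA, and in Tsc22d3, which was lower, and shRNA replicate 4 is far above its group in Nr3c1 (102 CPM) and Per1 (33.3 CPM).

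Nr3c2, the mineralocorticoid receptor gene (ENSMUSG00000031618, mm9 chromosome 8 from 79423341 to 79768911, plus strand), had 51.3, 51.2, 37.4, 24.7 and 30.6 CPM in shNT replicates 1 to 5. Its shRNA replicates 1 to 4 had 65.0, 65.7, 74.5 and 93.0 CPM. All 4 shRNA samples were above all 5 shNT samples, and the lowest values were those of shNT replicates 4 and 5. The mean was 39.0 ± 12 CPM with shNT (SD, n = 5) and 74.6 ± 13.0 CPM with the shRNA (SD, n = 4). On the log2 scale the difference was 0.93 (standard error 0.22, 95% confidence interval 0.44 to 1.42). This was the largest change among the 8 genes, and with an edgeR QL FDR of 0.0538 it just missed the threshold. It passed in 8 of 25 alternatives and not in the other 17. Among the 8 were edgeR's likelihood ratio test, DESeq2 and limma voom, which called 14.8%, 15.7% and 19.4% of all genes, and edgeR's exact test. Exons of Gm10649 on the opposite strand overlap 3.82% of its exon bases, where unstranded counts do not tell both genes apart.

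Nr3c1, the glucocorticoid receptor gene (ENSMUSG00000024431, chromosome 18 from 39570199 to 39650955, minus strand), had 49.6, 48.2, 38.5, 35.1 and 38 CPM in shNT replicates 1 to 5. Its shRNA replicates 1 to 4 had 57.0, 50.6, 57.1 and 102 CPM. The lowest shRNA sample was slightly above the highest shNT sample, and shRNA replicate 4 was far above the rest. Means were 41.9 ± 6.59 CPM with shNT (SD, n = 5) and 66.6 ± 23.7 CPM with the shRNA (SD, n = 4). The log2 fold change was 0.67 (standard error 0.21, 95% confidence interval 0.20 to 1.13, FDR = 0.0716, edgeR QL test). Nr3c1 passed in 3 of 25 alternatives: edgeR's likelihood ratio test and DESeq2, which called 14.8% and 15.7% of all genes, and edgeR's exact test. Without shRNA replicate 4 its log2 fold change was 0.37. The size of the difference thus rested in large part on shRNA replicate 4. That sample had the highest levels of astrocyte, endothelial, oligodendrocyte and DG granule cell markers and of nuclear-retained RNAs. It also had the largest share of reads outside exons. The part of these measures in the difference was not tested, and with a single such sample they cannot be told apart.

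The sample names form a set called YTa31, with replicates 1 to 3 of both groups, and a set called YTa32, with shNT replicates 4 and 5 and shRNA replicate 4. Whether these are batches is not stated in the sources used here. For Nr3c2 the difference of mean log2 levels was 0.57 within YTa31 and 1.75 within YTa32. Nr3c1 differed by 0.28 within YTa31 and by 1.48 within YTa32. Both receptor genes were thus higher with the shRNA in each set, and further apart in YTa32, where a single shRNA sample stands against 2 shNT samples and no test within the set was made.

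Hsd11b1 encodes the enzyme that regenerates active corticosterone from its inert keto form inside cells (ENSMUSG00000016194, chromosome 1 from 195047824 to 195090248, minus strand). Replicates 1 to 5 of shNT had 12, 13.1, 14.0, 11.7 and 12.2 CPM. With the shRNA, replicates 1 to 4 had 11.3, 14.4, 14.8 and 25.3 CPM. The groups overlapped, and the lowest value of all was in an shRNA sample. Means were 12.6 ± 0.948 CPM for shNT (SD, n = 5) and 16.4 ± 6.14 CPM for shRNA (SD, n = 4). Their log2 fold change was 0.38 (standard error 0.22, 95% confidence interval -0.09 to 0.86, FDR = 0.225, edgeR QL test). Without shRNA replicate 4 the value was 0.08. The difference was 0.04 within YTa31 and 1.08 within YTa32.

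Fkbp5 encodes an immunophilin co-chaperone that lowers the affinity of the glucocorticoid receptor for hormone and is itself induced by that receptor, a short negative feedback loop (ENSMUSG00000024222, chromosome 17 from 28536040 to 28654469, minus strand). Levels in shNT replicates 1 to 5 were 25.5, 22.1, 27.2, 20.2 and 23.0 CPM. It was 33.8, 38.5, 36.3 and 34.8 CPM in shRNA replicates 1 to 4. The groups were apart and narrow, with shRNA replicate 4 in the middle of its group, unlike in the receptor genes. Fkbp5 rose from a mean of 23.6 ± 2.76 CPM with shNT (SD, n = 5) to 35.8 ± 2.05 CPM with the shRNA (SD, n = 4). This is 0.60 on the log2 scale (standard error 0.13, 95% confidence interval 0.32 to 0.88, FDR = 0.0433, edgeR QL test). It was 0.54 higher within YTa31 and 0.69 higher within YTa32 on the log2 scale. The fold change lies near the 1.5-fold minimum, and the call was lost under 17 of 25 alternatives. In 9 of these 17 no gene at all was called. Leaving out single samples, the log2 fold change ran from 0.48 to 0.63 and the call held without shNT replicate 1 and with no other sample left out.

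Fkbp4 encodes the related immunophilin that links the receptor complex to the dynein motor and favours hormone binding and transport to the nucleus (ENSMUSG00000030357, chromosome 6 from 128379753 to 128388695, minus strand). In replicates 1 to 5 of shNT it had 343, 321, 378, 444 and 497 CPM. With the shRNA it had 330.3, 334, 311 and 205 CPM in replicates 1 to 4. shRNA replicates 1 and 2 fell inside the shNT range, and shRNA replicate 4 was the lowest of all. It averaged 397 ± 72.8 CPM with shNT (SD, n = 5) and 295 ± 60.9 CPM with the shRNA (SD, n = 4). The difference was -0.43 on the log2 scale (standard error 0.20, 95% confidence interval -0.86 to 0.01, FDR = 0.152, edgeR QL test). Its value was -0.30 without shRNA replicate 4, and the difference was -0.09 within YTa31 and -1.2 within YTa32. Fkbp4 thus did not pass, and its sign was opposite to that of Fkbp5.

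Tsc22d3 encodes a leucine zipper protein that binds and restrains inflammatory transcription factors and is a standard glucocorticoid-induced gene (ENSMUSG00000031431, chromosome X from 137074067 to 137135198, minus strand). Its shNT replicates 1 to 5 had 225, 264, 232, 309 and 351 CPM. Its shRNA replicates 1 to 4 had 196, 194, 191 and 184 CPM. Here the 4 shRNA samples lay close together below all shNT samples, while the shNT samples were spread and were highest in replicates 4 and 5. Its means were 276 ± 53.2 CPM with shNT (SD, n = 5) and 191 ± 5.24 CPM with the shRNA (SD, n = 4). The log2 fold change, -0.53 (standard error 0.16, 95% confidence interval -0.89 to -0.17, FDR = 0.0688, edgeR QL test), did not pass. Within YTa31 the difference was -0.31 and within YTa32 -0.84. Without shRNA replicate 4 it was -0.53. The sign was opposite to that of Fkbp5, Sgk1 and Per1 in all 25 alternatives, where the log2 fold change was between -0.65 and -0.35. Subtraction of the exon length trend, given below, is not among the 25.

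Sgk1 encodes a serine/threonine kinase, induced by corticosteroids and by activity, that acts on ion channels and transporters through the ubiquitin ligase of Nedd4l (ENSMUSG00000019970, chromosome 10 from 21601990 to 21719709, plus strand). The 5 shNT replicates had 63.6, 44.7, 59.3, 52.4 and 43.5 CPM. The 4 shRNA replicates had 70.9, 77.8, 77.6 and 73.5 CPM. No sample of one group reached the range of the other, and shRNA replicate 4 again lay inside its group. Mean levels were 52.7 ± 8.84 CPM with shNT (SD, n = 5) and 74.9 ± 3.36 CPM with the shRNA (SD, n = 4). Sgk1 was thus higher by 0.51 on the log2 scale (standard error 0.14, 95% confidence interval 0.20 to 0.82, FDR = 0.0635, edgeR QL test). It was 0.45 within YTa31 and 0.62 within YTa32. The gene has 13 annotated transcripts, which the counts do not separate.

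Per1 encodes a repressor of the circadian clock that also responds acutely to glucocorticoids and to activity (ENSMUSG00000020893, chromosome 11 from 68908719 to 68923462, plus strand). Replicates 1 to 5 of shNT were at 20.5, 18.5, 19.0, 19.4 and 18.1 CPM. Replicates 1 to 4 of shRNA were at 22.6, 23.0, 23.6 and 33.3 CPM. The shRNA samples were all higher, 3 of them by little and replicate 4 by far. The mean was 19.1 ± 0.921 CPM for shNT (SD, n = 5) and 25.6 ± 5.15 CPM for shRNA (SD, n = 4). Its log2 fold change was 0.42 (standard error 0.15, 95% confidence interval 0.10 to 0.75, FDR = 0.0833, edgeR QL test). It was 0.26 without shRNA replicate 4, 0.25 within YTa31 and 0.83 within YTa32.

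Among the samples, the 8 genes thus fell into different patterns. Fkbp5, Sgk1 and Tsc22d3 had shRNA groups in which replicate 4 was not apart, and their log2 fold changes without it were 0.60, 0.51 and -0.53. Nr3c1, Per1 and Hsd11b1 had their highest value in shRNA replicate 4, and Fkbp4 its lowest. Nr3c2 was highest there too but stayed at 0.79 without that sample. Over the deviations from the group means in the 9 samples, Pearson's r was 0.87 between Nr3c1 and Per1, 0.87 between Per1 and Hsd11b1, 0.77 between Nr3c1 and Nr3c2 and -0.91 between Nr3c1 and Fkbp4. Fkbp5 and Nr3c1 had r = -0.02, and Fkbp5 and Sgk1 had r = 0.63. These are descriptions over points that share libraries, depth and the single shRNA replicate 4.

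**Figure D2:**
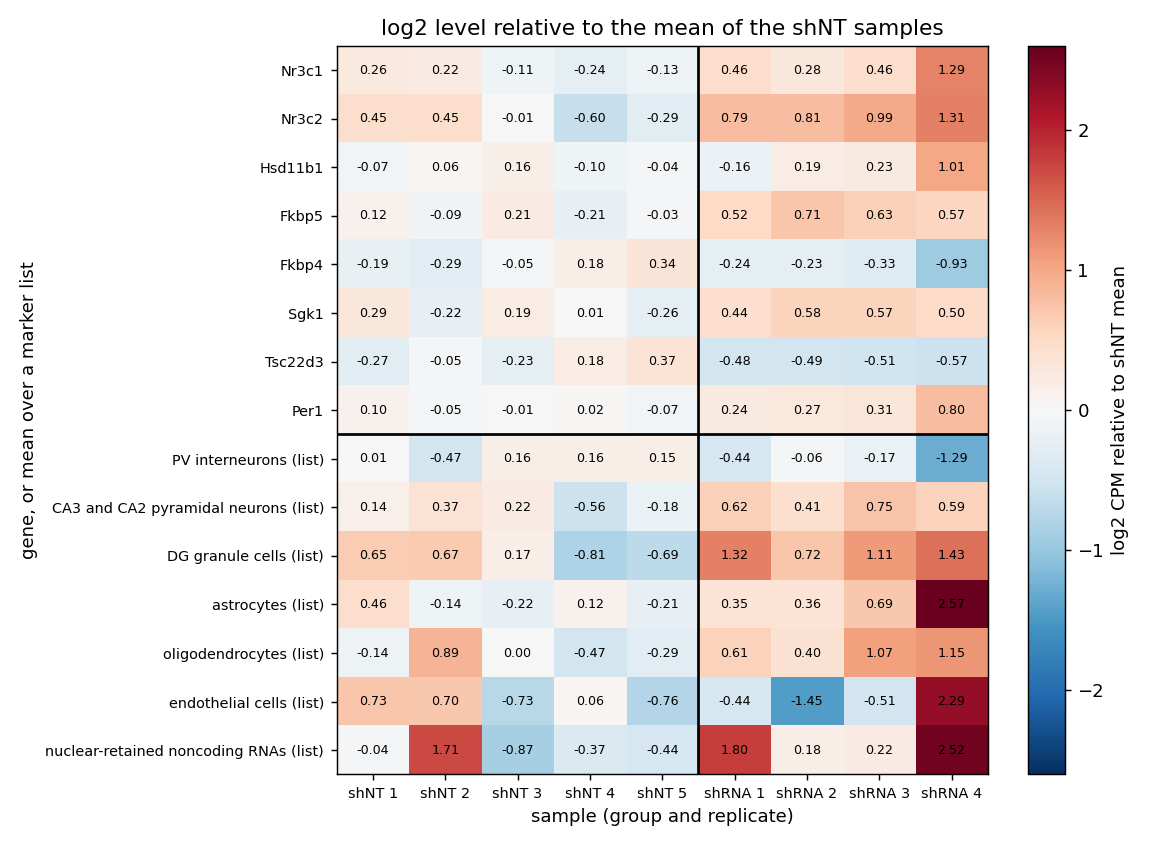
Log2 CPM of each of the 8 genes (upper rows) and mean log2 CPM over the markers of each cell class (lower rows) in each sample, as the difference from the shNT mean, with the value written in each cell and red for higher and blue for lower. shRNA replicate 4 has the highest astrocyte (2.57), nuclear-retained RNA (2.52), endothelial (2.29), DG granule cell (1.43) and oligodendrocyte (1.15) values and the lowest PV IN value (-1.29). It also has the highest Nr3c1 (1.29), Nr3c2 (1.31), Hsd11b1 (1.01) and Per1 (0.80), whereas Fkbp5 (0.57) and Sgk1 (0.50) there are like those of the other shRNA samples.

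Markers of other cells moved with the groups and are given here as measured values. Over all genes tested, 57.9% had a positive log2 fold change, 1.74% were called higher and 20.7% were higher at an unadjusted p under 0.05. All 10 astrocyte markers had a positive log2 fold change, 0 were called and 9 had an unadjusted p under 0.05, with summed levels of 1103 to 1586 CPM in the shNT samples and 1474 to 5810 CPM in the shRNA samples. The 8 CA3 and CA2 pyramidal neuron markers summed to 283 to 572 CPM with shNT and 678 to 858 CPM with the shRNA, without overlap, with 7 positive and 1 called higher. The 9 oligodendrocyte markers summed to 780 to 2422 CPM and 1478 to 3071 CPM, with 9 positive and 0 called. The 5 DG granule cell markers summed to 26.5 to 65.3 CPM and 64.9 to 99.9 CPM, with 5 positive and 0 called. The 8 endothelial markers summed to 91.9 to 284 CPM and 57.3 to 758 CPM, the highest in shRNA replicate 4, with 7 positive and 0 called. Oligodendrocyte precursor markers had 3 of 4 positive and 2 called higher (median log2 fold change 1.11), with sums of 35.8 to 54.7 CPM and 52.1 to 55.4 CPM. Of 6 microglia markers 4 were positive, 0 called and 3 at an unadjusted p under 0.05, with sums of 41.3 to 92.7 CPM and 73.0 to 83.9 CPM. The 3 choroid plexus markers tested were all positive with 0 called, and summed to 3.23 to 6.08 CPM and 7.07 to 9.79 CPM, also without overlap. Of 5 other interneuron markers 2 were positive and 0 called, with sums of 482 to 872 CPM and 261 to 652 CPM. Higher at an unadjusted p under 0.05 were 7 oligodendrocyte, 5 pyramidal neuron, 3 DG granule cell and 3 oligodendrocyte precursor markers. So were 1 choroid plexus, 1 other interneuron and 0 endothelial markers. No tested marker of these lists had a count of 0 in any sample. The part of these cells in the differences of the 8 genes was not tested.

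Log2 fold changes over all genes also rose with exon length, a trend that was removed in an alternative added after seeing the data. At the exon length of Fkbp5, 6316 bases, the trend was 0.36, and its log2 fold change less the trend was 0.25. The values less the trend were 0.57 for Nr3c2, 0.25 for Nr3c1, 0.24 for Sgk1, 0.34 for Hsd11b1 and 0.11 for Per1. Tsc22d3 moved further from 0, to -0.75, and Fkbp4 was at -0.48. All 8 genes kept their sign. Fitted with the outside-exon share of reads as covariate, the log2 fold changes were 0.66 for Fkbp5, 0.60 for Sgk1, 0.73 for Nr3c2, 0.31 for Nr3c1, 0.28 for Per1, 0.13 for Hsd11b1, -0.20 for Fkbp4 and -0.51 for Tsc22d3. No member was called in that fit, where edgeR's QL test called 0 of all genes and 4479 of 15069 had an unadjusted p under 0.05.

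**Figure D3:**
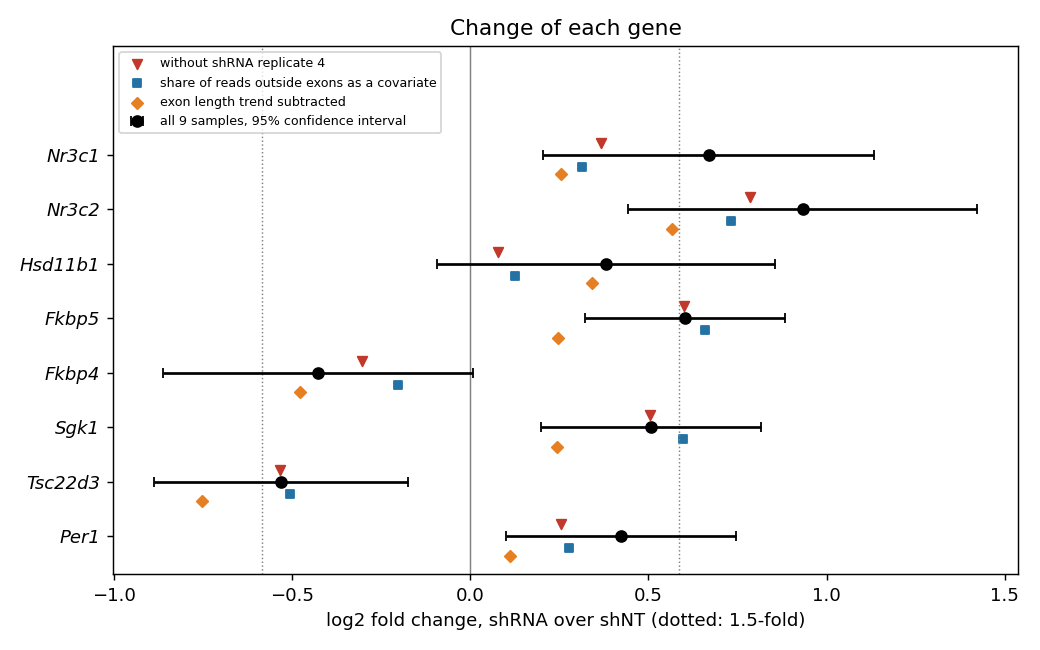
Log2 fold change of each gene, shRNA over shNT, with its 95% confidence interval over all 9 samples (black), without shRNA replicate 4 (red), with the outside-exon share of reads as covariate (blue) and less the exon length trend (orange), and with dotted lines at 1.5-fold. All 8 genes keep their sign in every value shown, below 0 in Fkbp4 and Tsc22d3 and above 0 in the others. Nr3c1, Hsd11b1 and Per1 shrink toward 0 without shRNA replicate 4, and all genes above 0 are nearer 0 less the exon length trend, with Fkbp5 at 0.25.

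Levels of different genes were compared per length, as RPKM (CPM per kilobase of exon). In the shNT samples the order from high to low was Fkbp4 at 142 ± 26.1 RPKM (SD, n = 5), Tsc22d3 at 63.6 ± 12.3, Sgk1 at 10.8 ± 1.80, Nr3c2 at 6.03 ± 1.86, Nr3c1 at 5.64 ± 0.887, Hsd11b1 at 4.66 ± 0.350, Fkbp5 at 3.73 ± 0.437 and Per1 at 3.39 ± 0.164. The ranges of the neighbours Nr3c2 and Nr3c1, of Nr3c1 and Hsd11b1, and of Fkbp5 and Per1 overlapped. Within single samples, Nr3c2 was above Nr3c1 in 3 of 5 shNT and 4 of 4 shRNA samples, Nr3c1 above Hsd11b1 in 5 of 5 and 4 of 4, and Fkbp5 above Per1 in 4 of 5 and 3 of 4. Fkbp4 stood at the 97.1 percentile of RPKM among all genes tested and Per1 at the 43.8 percentile. The order of the group means was the same with the shRNA, with Fkbp4 at 106 RPKM and Per1 at 4.55 RPKM, although Hsd11b1 was above Fkbp5 in 5 of 5 shNT samples and 1 of 4 shRNA samples.

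Ratios of RPKM within a sample describe the balance of paired genes and do not depend on the scaling between libraries. Nr3c2 to Nr3c1, the balance of both receptors, was 1.05 ± 0.176 (SD, n = 5) in the shNT samples, from 0.809 to 1.22. It was 1.34 ± 0.212 (SD, n = 4) in the shRNA samples, from 1.05 to 1.5. The ranges overlapped. Fkbp5 to Fkbp4, the balance of the co-chaperones with opposite action on the receptor, was 0.0271 ± 0.00630 (SD, n = 5) with shNT and 0.0558 ± 0.0132 (SD, n = 4) with the shRNA. All shRNA values, 0.0452 to 0.0751, were above all shNT values, 0.0202 to 0.0328. The exon length trend given above, 0.36 for Fkbp5 and 0.05 for Fkbp4 on the log2 scale, was not removed from this ratio. No share over other gene pairs was made.

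**Figure D4:**
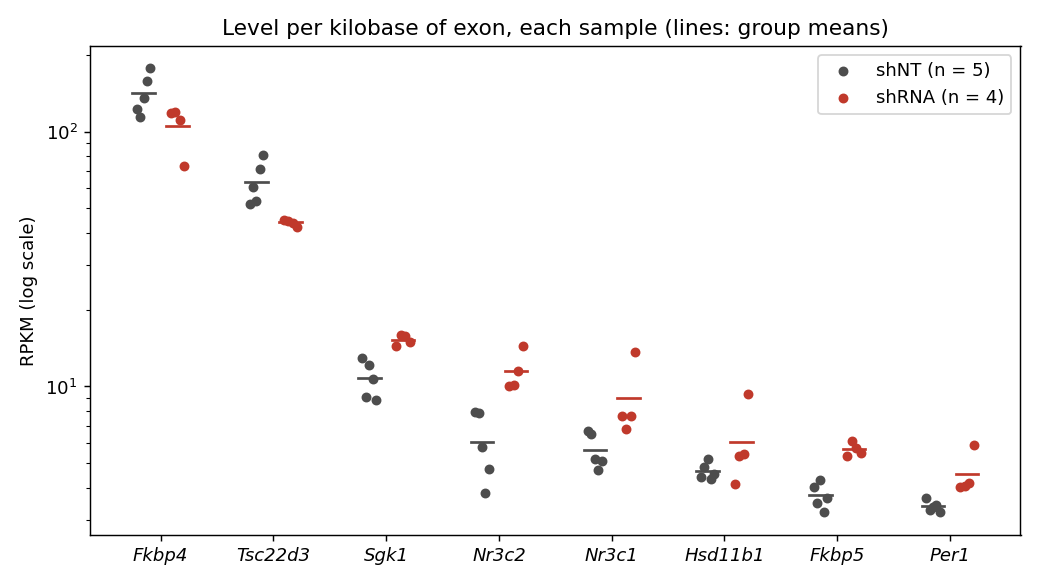
Level of each gene per kilobase of exon in each sample (RPKM, log axis), in the order of the shNT means, with group means as lines. Fkbp4 and Tsc22d3 are well above the other 6 genes, whose shNT means lie between 3.39 and 10.8 RPKM.

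Promoter windows, 250 bases before to 50 after a transcript's start, were read from RefSeq on the GRCm38.p6 build, which is not the build of the gene positions above. Windows were found for 7 of the 8 genes, 15 in all, of 32851 windows over all genes. They were searched on both strands for the glucocorticoid response element as an inverted repeat of a single site with 3 bases between, for that single site TGTTCT, the E-box CACGTG bound by clock factors, the cyclic AMP response element TGACGTCA with its core TGACG, and the heat shock element. The single site and the core lie within the longer elements. The inverted repeat occurred in 3 of all windows (0.00913%), and 1 of these was the fifth Sgk1 window. These windows are shown because they hold the inverted repeat or an E-box, which are in capitals, each at the position of its first base relative to the start site: the Sgk1 window on chr10:21993640-21993939, plus strand, with the E-box at -246 and the inverted repeat at -189; the Fkbp5 window on chr17:28486100-28486399, minus strand, with the E-box at -169; and the first Per1 window on chr11:69098699-69098998, plus strand, with the E-box at -166.
Sgk1: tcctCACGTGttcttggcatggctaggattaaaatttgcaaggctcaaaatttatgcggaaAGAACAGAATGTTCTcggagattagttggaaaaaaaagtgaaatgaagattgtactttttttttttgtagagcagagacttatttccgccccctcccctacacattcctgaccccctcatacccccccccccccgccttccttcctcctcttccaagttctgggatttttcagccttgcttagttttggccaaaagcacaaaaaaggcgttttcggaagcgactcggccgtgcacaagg
Fkbp5: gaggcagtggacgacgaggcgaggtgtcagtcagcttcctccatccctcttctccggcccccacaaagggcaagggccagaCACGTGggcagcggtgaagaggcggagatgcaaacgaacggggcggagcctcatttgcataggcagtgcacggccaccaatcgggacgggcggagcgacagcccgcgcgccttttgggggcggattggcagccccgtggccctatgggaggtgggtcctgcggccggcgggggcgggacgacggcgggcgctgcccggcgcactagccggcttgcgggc
Per1: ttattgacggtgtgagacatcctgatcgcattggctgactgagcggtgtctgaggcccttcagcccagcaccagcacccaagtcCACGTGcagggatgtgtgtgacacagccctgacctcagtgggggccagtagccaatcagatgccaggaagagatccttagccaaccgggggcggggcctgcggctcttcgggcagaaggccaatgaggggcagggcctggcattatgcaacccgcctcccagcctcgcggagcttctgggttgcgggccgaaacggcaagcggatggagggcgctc

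The E-box was found in these 3 member windows and in 7.15% of all windows. A single site TGTTCT was in 4 member windows, 3 of Sgk1 and 1 of Tsc22d3, and in 19% of all windows, and in the Sgk1 window above it also follows the E-box and shares 2 bases with it. The core TGACG was in 5 member windows, including both windows of Per1, and in 20.8% of all windows. The whole element was in 0 member windows and 1.79% of all, and the heat shock element in 0 member windows and 0.603% of all. The Fkbp5 window holds neither the inverted repeat nor a single site of the response element within these bases. A match is a description of letters and was not related to the changes in level.

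Genes of the wider pathway were read from 10 lists, in which 121 genes were tested. Of these, 3 were called higher, 0 lower, 34 had a positive and 13 a negative change with an unadjusted p under 0.05, and 17 (14%) lay above and 6 (4.96%) below without overlap, beside 8.97% and 6.68% of all genes. Of the genes tested in the lists 2.48% were called higher, and 28.1% were higher and 10.7% lower at that p, beside 1.74%, 20.7% and 13.4% of all genes. Nedd4l and Per2 were among the called genes. These lists too were chosen with earlier results of these data known, so the shares are descriptions, and no set test was made.

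Receptor chaperones, the Hsp90 machinery that holds the receptors ready for hormone, had negative log2 fold changes in 16 of 16 genes, with a median of -0.39. None was called, 6 had an unadjusted p under 0.05 (13.4% of all genes were lower at that p), and 4 lay below the shNT samples without overlap (6.68% of all genes). Bag1, which couples Hsp70 to the receptor, averaged 220.1 ± 42.5 CPM with shNT (SD, n = 5) and 144 ± 16.8 CPM with the shRNA (SD, n = 4), and its edgeR QL FDR was 0.0645. Ptges3, the co-chaperone that stabilizes the Hsp90 complex, was at -0.58 (FDR = 0.0676, edgeR QL test). The sign of Fkbp4 was that of this list. The mean log2 level of the list was -0.73 in shRNA replicate 4 and between -0.27 and -0.18 in the other shRNA samples, relative to shNT.

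Receptor coregulators, which link the receptors to chromatin, had positive log2 fold changes in 13 of 13 genes, with a median of 0.58, of which 0.17 was left less the exon length trend. None was called and 8 were higher at an unadjusted p under 0.05, as were 20.7% of all genes. A positive log2 fold change was seen in 57.9% of all genes. Ncor1, a corepressor, averaged 230.2 ± 86.4 CPM with shNT (SD, n = 5) and 613 ± 294 CPM with the shRNA (SD, n = 4), and its edgeR QL FDR was 0.0517. Ep300, a histone acetyltransferase gene, was at 0.83 on the log2 scale (edgeR FDR = 0.0503). Esr1, an estrogen receptor gene, was at 0.54 (FDR = 0.310, edgeR QL test) and at 0.32 without shRNA replicate 3, 0.34 without shRNA replicate 2.

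Among 28 other glucocorticoid-responsive genes 22 had a positive log2 fold change, with a median of 0.47. Of these 28, 0 were called and 9 were higher at an unadjusted p under 0.05. Among all genes tested, 57.9% had a positive log2 fold change and 20.7% were higher at that p. Zbtb16, a zinc finger repressor induced by glucocorticoids, averaged 12.6 ± 3.66 CPM with shNT (SD, n = 5) and 27.0 ± 9.04 CPM with the shRNA (SD, n = 4), at an edgeR FDR of 0.0503. Hif3a, a hypoxia factor gene, had a log2 fold change of 1.74 at a mean of 0.549 CPM in the shNT samples (FDR = 0.0588, edgeR QL test). The summed level of this list was 703 to 802 CPM with shNT and 773 to 1160 CPM with the shRNA, and 773 to 859 CPM without shRNA replicate 4. Steroid metabolism and transport genes, 5 tested, had 0 called and 0 at an unadjusted p under 0.05, with H6pd, which supplies the cofactor of the enzyme of Hsd11b1, at 0.26 (FDR = 0.577, edgeR QL test) and at 0.03 without shNT replicate 5. Akr1c14 was at 0.60 (FDR = 0.570, edgeR QL test) but at -1.08 without shRNA replicate 4.

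Clock genes, the family of Per1, had 1 of 18 called, 13 with a positive log2 fold change and a median of 0.27. For this list and the next, 1.74% of all genes were called higher and 57.9% had a positive log2 fold change. Per2, a paralog of Per1, rose from 9.07 ± 3.27 CPM with shNT (SD, n = 5) to 20.7 ± 2.78 CPM with the shRNA (SD, n = 4), by 1.18 on the log2 scale (edgeR FDR = 0.0424) and with no overlap. Rorb, an orphan nuclear receptor gene, had 67.9 CPM in shRNA replicate 4 and 11.7 to 14.6 CPM in the other shRNA samples, and its log2 fold change was 1.89 with that sample and 0.84 without it. Of 11 regulators and substrates of the kinase of Sgk1, 1 was called: Nedd4l, the ubiquitin ligase that the kinase phosphorylates, rose from 38.2 ± 9.50 CPM with shNT (SD, n = 5) to 83.1 ± 10.4 CPM with the shRNA (SD, n = 4), by 1.12 on the log2 scale (edgeR FDR = 0.0403). Rictor, a subunit of the complex that activates the kinase, was at 0.56 (FDR = 0.0620, edgeR QL test). Less the exon length trend the medians of the clock and kinase lists were -0.12 and -0.06.

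Paralogs of the 8 genes had 6 of 12 with a positive log2 fold change and a median of 0.01, or -0.29 less the exon length trend. Of these 12, 0 were called, and 5 were lower and 1 higher at an unadjusted p under 0.05, beside 13.4% and 20.7% of all genes. Below the shNT samples without overlap lay 2 paralogs, as did 6.68% of all genes. The immunophilin genes Fkbp1b, at -0.70 (FDR = 0.0630), and Fkbp3, at -0.63 (FDR = 0.0683, edgeR QL test), were the lowest in p and had the sign of Fkbp4. Of the corticotropin-releasing hormone genes 3 were tested and 0 called, with Crh, which encodes the hormone, at -0.60 (FDR = 0.218, edgeR QL test) and Crhbp, which encodes a protein that binds it, at 385 ± 42.4 CPM with shNT (SD, n = 5) and 269 ± 86.1 CPM with the shRNA (SD, n = 4), a difference of -0.52 on the log2 scale that was -0.33 without shRNA replicate 4. Immediate early genes, which report neuronal activity, had 0 of 12 called, 9 positive and 7 higher at an unadjusted p under 0.05, with a median of 0.61. Beside these, 57.9% of all genes were positive and 20.7% were higher at that p. Arc, a synaptic plasticity gene, was at 1.19 and Jun, a transcription factor gene, at 1.2 on the log2 scale, both at an edgeR FDR of 0.0630. Jun had 169 CPM in shRNA replicate 4 and was at 0.62 without it.

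**Figure D5:**
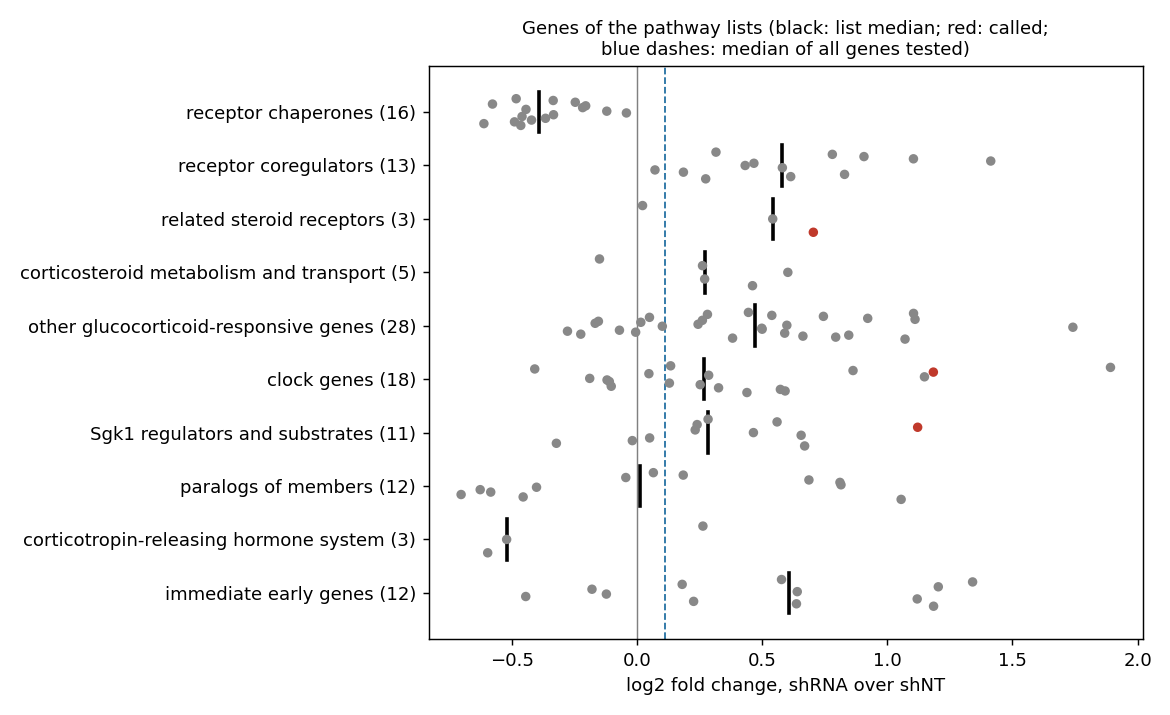
Log2 fold change, shRNA over shNT, of each tested gene in the 10 pathway lists (grey, or red where called), with the list median (black) and the median of all genes tested, 0.11 (blue dashes), and the number of genes in parentheses. All 16 receptor chaperones lie below 0 and all 13 receptor coregulators above 0, and Per2 (clock genes) and Nedd4l (kinase list) are among the called genes.

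For each of the 8 genes the gene with the most similar pattern was sought among 9484 genes with a mean of at least 10 CPM, as Pearson's r of the deviations from the group means in the 9 samples. The closest was Kcng1 for Fkbp5 (r = 0.956), Surf6 for Fkbp4 (r = 0.995), Plxnb1 for Nr3c1 (r = 0.990), Rassf2 for Nr3c2 (r = 0.988), Ccdc157 for Sgk1 (r = 0.990), Hsd17b10 for Tsc22d3 (r = 0.994) and Klhl15 for Hsd11b1 (r = 0.980). Per1 was closest to Slc1a3, an astrocyte marker (r = 0.994), and its next were S1pr1 and Rorb. The best of so many genes over 9 points is a description and has no test.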

How the data were processed

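RNA sequencing libraries were made with the SMARTer v4 kit. Per the labels and the study's methods, the authors aligned reads to mm9 with STAR and counted them per gene with HTSeq 0.6.0 without regard to strand, and they deposited raw counts. The annotation they used is not given in the sources used here, so names, positions and exon lengths came from the GENCODE annotation of the same build, which named 37205 of 37620 identifiers. Reads outside annotated exons were kept out of library sizes and made up 9.76% to 27.2% of uniquely aligned reads.

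R 4.3.3 was used with the packages edgeR (4.0.16), DESeq2 (1.42.0) and limma (3.58.1). A gene was kept if any sample reached 1 CPM. After TMM scaling, groups were compared by the quasi-likelihood test of edgeR, condition as the only term, fitted over all 15069 genes. Log2 levels used a prior count of 2, and the biological coefficient of variation was 0.303. Scripts were tested on simulated data. Alternatives were other tests, scalings and filters, no fold minimum, a replicate block, the set of sample names as a term or alone, the share of reads outside exons, and each sample left out. The 4 alternatives added after seeing the data included the version 4 quasi-likelihood test, exclusion of shNT replicate 2 with shRNA replicate 4, and subtraction of the exon length trend. The 8 genes and all lists were chosen with earlier results of these data known. From each pathway list the text names every called gene and, where fewer than 2 were called, the genes of lowest p to make 2, except 1 called gene that is not reported here. For likeness, genes correlating best with a member are named. Genes under the filter (Esr2, Hsd11b2, Lcn2, Crhr2, Ucn and Ucn3) were not tested, and Ciart was not found by name.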

Additional observations from a re-analysis of the deposited data

Results flagged for a closer look

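Samples far from the others of their group were sought in 64 sets of values (Dixon's criterion at 95%), of which chance alone gives about 1 in 20, or 3.2, and 7 were found. In shRNA replicate 4, Nr3c1 was at 102 CPM, where the other shRNA samples had 50.6 to 57.1 CPM, and Per1 was at 33.3 CPM, where they had 22.6 to 23.6 CPM. The mean log2 level of the astrocyte markers was 2.57 in that sample and 0.35 to 0.69 in the others, relative to shNT. The receptor chaperone list was at -0.73 there and between -0.27 and -0.18 in the others. shNT replicate 2 had 18.6% of reads outside exons, with 9.76% to 11.3% in the other shNT samples. Its PV IN markers were at -0.47, with 0.01 to 0.16 in the others, and the related steroid receptor list at -0.41, with 0.06 to 0.14 in the others.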

How the results depend on the processing

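No member changed sign under any of 25 alternatives. The ratio of Nr3c2 to Nr3c1 within samples averaged 1.18 over all samples, and 1.14 to 1.22 with single samples left out. It does not depend on the test or the scaling, so most alternatives could not move it. Its group means were 1.05 with shNT and 1.34 with the shRNA. The number of members called, 1, and of pathway genes called, 3, did depend on the choices. They were 3 and 26 by the likelihood ratio test of edgeR and also by its exact test, 2 and 24 with DESeq2, and 2 and 35 with limma voom, where 14.8%, 15.7% and 19.4% of all genes were called by the likelihood ratio test, DESeq2 and limma voom. They were 0 and 0 with library size only, with upper quartile scaling, with the replicate block, in the YTa31 samples alone and with the outside-exon share of reads as covariate. Of all genes, these fits called 0 by edgeR's QL test (1493 to 5360 had an unadjusted p under 0.05), except for 34 of 15059 in the block fit. With DESeq2 size factors in edgeR 0 members and 2 pathway genes were called, and with the set of sample names as a term 0 and 5. Pathway genes called were 5 with a filter on at least 4 samples, 9 without a filter and 6 with the version 4 quasi-likelihood test, each with 1 member. Excluding shNT replicate 2 and shRNA replicate 4 gave 2 members and 10 pathway genes. With each sample left out the counts ran from 0 to 3 and from 0 to 23, highest without shNT replicate 1 and with 0 members without shNT replicate 3, 4 or 5 or any shRNA replicate. No gene at all was called, and 3473 to 4625 had an unadjusted p under 0.05, when the sample left out was shNT replicate 3, 4 or 5, shRNA replicate 1 or shRNA replicate 3. The call without shNT replicate 2, and that without a filter, was Nr3c2, not Fkbp5. Akr1c14 (0.60) turned to -1.08 with limma voom, -0.52 with the replicate block, -1.12 in YTa31 alone, -1.39 with the covariate, -1.01 without both samples and between -1.08 and 0.97 with single samples left out, lowest without shRNA replicate 4. The cause was not tested. Deviations of same-numbered samples had correlations of -0.27, -0.64, 0.49 and -0.18 for replicates 1 to 4. These 4 values cannot show whether the numbers mark pairs. In the block fit Fkbp5 was at 0.51 (FDR = 0.383, edgeR QL test). Counts of the members were between 232 and 15844, lowest in Hsd11b1.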
